A study of Homo sapiens with 15 samples.

Results

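BRD9 degradation was compared with knockdown of the SS18-SSX1 fusion, gene by gene, in RNA-seq of HSSYII, an established line of synovial sarcoma with that fusion. The quantity described is a difference of differences on the log2 scale: the dBRD9A effect (dBRD9A minus DMSO) minus the knockdown effect (the mean of shSS18-SSX1-1 and shSS18-SSX1-2 minus shRenilla). All 15 libraries of the 15 in the series enter it, 3 in each of 5 groups. Cells of the first pair of groups received DMSO or 100 nM dBRD9A, a degrader of the BRD9 protein, for 6 hr. Cells of the other groups were infected with lentivirus carrying GFP and a hairpin, at a multiplicity of infection of 1.0, and were harvested at 96 hr without drug selection. The shRenilla hairpin is the control, and the 2 others target SS18-SSX1. No group combined the compound with a hairpin, every group came from the same line, and the time of exposure, the infection and the target changed together between the experiments, so their parts in a difference cannot be told apart. A positive difference means that the dBRD9A effect lies above the knockdown effect, which can come from a rise with dBRD9A, a fall with knockdown, or both.

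BRD9 is a bromodomain protein of the non-canonical BAF chromatin remodelling complex, and SS18 is a subunit shared by canonical and non-canonical BAF complexes. The SS18-SSX fusion, the hallmark of synovial sarcoma, puts the tail of an SSX protein on SS18, so that both complexes can carry it. The tail can take BAF complexes to genes kept silent by Polycomb, such as those of developmental transcription factors, and many of these are active in the tumour. Removing BRD9 takes away part of 1 kind of complex, whereas knocking the fusion down removes the driver itself.

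The targeted genes were checked first. SSX1, the fusion partner, whose reads include those of the fusion, was 63.6 ± 11.8 CPM with shRenilla (SD, n = 3; CPM, the unit of all levels given, is the count scaled to library size after TMM), 20.1 ± 1.22 CPM and 28.7 ± 0.737 CPM with the first and the second fusion hairpin, and the 3 groups did not overlap. The SSX genes are near-identical copies, so reads may be split between them. SSX1 was 49.4 ± 3.48 CPM with DMSO and 50.5 ± 2.06 CPM with dBRD9A. BRD9 mRNA was 88.5 ± 2.96 CPM with DMSO and 93.2 ± 3.49 CPM with dBRD9A, and it does not check those labels, because the compound acts on the protein. Total counts per library were 18576874 to 27027411. The common coefficient of variation was 2.78% among the DMSO and dBRD9A libraries and 8.91% among the hairpin libraries, and shRenilla replicate 1 stood apart from the other 2 of its group. The controls themselves differed at 7941 of 14559 genes (54.5%; edgeR adjusted p under 0.05), by over 2-fold at 1657, so equal folds in the 2 experiments often start from unequal levels. Endothelial and leukocyte markers were near 0: their summed levels were 0.926 to 7.91 CPM over 8 and 3.19 to 6.97 CPM over 8 genes. CDH5 and KDR had no count in any library, while TEK had 53 and 96 counts with the fusion hairpins. Nothing in the labels ties libraries to cultures of their own, so p-values measure the spread between libraries, which may be technical.

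The dBRD9A and knockdown effects differed at 5323 of 14559 tested genes at any fold (adjusted p under 0.05 by edgeR's quasi-likelihood test with Benjamini-Hochberg adjustment), 2550 higher (17.5%) and 2773 lower (19.0%). A gene was called when the difference also exceeded 1.5-fold. By that rule 991 genes were called higher (6.81%) and 1531 lower (10.5%). The median difference over all tested genes was -0.0032 on the log2 scale. Where the controls start from unequal levels the sign can depend on the scale, and 7 of the 2522 called genes had the opposite sign as a difference in CPM. In bulk RNA, fewer cells with a transcript and less of it per cell cannot be told apart, and the infected cells were not selected. Most of the called differences came with a knockdown effect: 1783 of the 2522 called genes (70.7%) passed the same threshold for knockdown alone, 84 for dBRD9A alone, 48 for both with opposite signs, 36 for both with the same sign, and 571 for neither. In the same fit the dBRD9A effect was called at 241 genes higher (1.66%) and 55 lower (0.378%), and the knockdown effect at 1872 higher (12.9%) and 854 lower (5.87%). At any fold, 737 (5.06%) and 763 (5.24%) were higher and lower with dBRD9A, and 3854 (26.5%) and 3656 (25.1%) with knockdown. Each gene had 1 spread for all 15 libraries, although the hairpin libraries varied more and were more in number. Calls with dBRD9A may thus be too few and calls with knockdown too many. The counts by side, and a dBRD9A effect that did not pass, are to be read with that limit. 

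The genes called with dBRD9A divided as follows. Of the 241 called higher, 97 were also called higher with knockdown (40.2% of the dBRD9A list and 5.18% of the knockdown list) and 38 were called lower with it. Of the 55 called lower, 8 were called lower and 10 were called higher with knockdown. The difference itself was called at 132 of the 241 and 36 of the 55, and since these effects enter the difference, these shares are a description and not a separate test. With shSS18-SSX1-1 and shSS18-SSX1-2 each set against dBRD9A on its own, 700 of the 991 and 1304 of the 1531 were called with both. Scaling by TMM assumes that most genes do not change. Were all dBRD9A effects 0.2 lower on the log2 scale, 548 genes would be called higher and 2476 lower, so that the share of calls that are higher would go from 39.3% to 18.1%. The study added ERCC spike-ins to normalize by cell count and reported mainly lowered expression after dBRD9A, unlike the 241 higher and 55 lower here. The counts used here hold no spike-ins, so that scaling could not be repeated.

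Genes that rose with dBRD9A and fell with knockdown gave some of the largest positive differences. NPTX1, a neuronal pentraxin secreted at synapses, lies on chromosome 17 of GRCh37 from 78440634 to 78451643. Its level was 6.33, 6.46 and 6.88 CPM in the DMSO libraries and 15.8, 16.3 and 15.4 CPM with dBRD9A. It was 6.79, 7.71 and 7.21 CPM with shRenilla, 1.81, 2.0 and 1.73 CPM with shSS18-SSX1-1 and 3.04, 3.47 and 3.29 CPM with shSS18-SSX1-2. The DMSO and shRenilla libraries overlapped, the dBRD9A libraries were all above them and the hairpin libraries all below. The dBRD9A effect was 1.27 (standard error 0.088, edgeR adjusted p = 1.38e-07), the knockdown effect -1.56 and the difference 2.83 (standard error 0.13, edgeR adjusted p = 1.90e-11). NTSR1, the receptor of the peptide neurotensin, rose by 1.09 with dBRD9A and fell by 1.41 with knockdown, and its difference was 2.50 (standard error 0.21, edgeR adjusted p = 6.27e-08).

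DUSP4, a phosphatase that inactivates MAP kinases in the nucleus, had the largest positive difference of the genes that averaged 5 CPM or more, 3.54 (standard error 0.30, edgeR adjusted p = 6.37e-08). It was 1.53, 1.24 and 1.78 CPM with DMSO and 3.49, 2.76 and 3.44 CPM with dBRD9A, against 16, 11.2 and 18.2 CPM with shRenilla. The hairpins took it to 1.72, 2.59 and 1.77 CPM and 3.95, 2.88 and 4.83 CPM. The dBRD9A libraries were above the DMSO libraries and within the range of the hairpin libraries, and the controls differed by 3.32. SHISA2, a membrane protein that keeps Wnt and FGF receptors in the endoplasmic reticulum, and RBFOX3, a neuronal splicing factor, had the same pair of signs, with differences of 2.01 and 1.81 (edgeR adjusted p = 6.52e-06 and 6.31e-06). So had MGC12916, a non-coding RNA, at 2.22 (edgeR adjusted p = 7.78e-09). SHISA2 and RBFOX3 were 3.14 and 2.24 higher with shRenilla than with DMSO.

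Other large positive differences lay mostly on the knockdown side. NKX6-2, a homeobox factor of the neural tube, was 18.9 to 22.1 CPM with DMSO, 27.6 to 29.6 with dBRD9A, 33.6 to 36 with shRenilla and 5.05 to 6.71 and 8.19 to 10.6 with the hairpins. Its difference of 2.64 (standard error 0.13, edgeR adjusted p = 6.93e-11) joined a dBRD9A effect of 0.44 to a knockdown effect of -2.20. NFATC1, a calcium-regulated transcription factor, had the same order, 0.53 and -2.01, and a difference of 2.54 (edgeR adjusted p = 8.26e-10). UNCX, a homeobox factor of the somites, had effects of -0.19 and -2.40 and a difference of 2.21 (edgeR adjusted p = 8.95e-09). PCDH1, a protocadherin of cell adhesion, rose by 1.51 with dBRD9A, the larger of its 2 effects, and fell by 0.73 with knockdown, and its difference was 2.24 (edgeR adjusted p = 3.26e-07).

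The opposite pair of signs, a fall with dBRD9A and a rise with knockdown, was seen at 10 called genes. FZD2, a Frizzled receptor for Wnt ligands, lies on chromosome 17 of GRCh37 from 42634852 to 42638630. It was 156, 170.1 and 169 CPM with DMSO and 101, 105 and 99.6 CPM with dBRD9A, and 106, 99.5 and 124 CPM, 264, 273 and 255 CPM and 267, 259 and 271 CPM with shRenilla and the 2 hairpins. The dBRD9A libraries were all below the DMSO libraries, and the hairpin libraries were all far above shRenilla. The 2 effects were -0.70 and 1.27, and the difference was -1.97 (standard error 0.094, edgeR adjusted p = 4.23e-11).

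STON1, an adaptor of endocytosis, had a difference of -1.96 (standard error 0.17, edgeR adjusted p = 8.82e-08) and lies on chromosome 2 of GRCh37 from 48756522 to 48825652. The readthrough gene STON1-GTF2A1L overlaps it and gave nearly the same value, -1.97, and reads of the pair cannot be told apart. COX6B2, a subunit of cytochrome oxidase of the testis, and PPM1J, a protein phosphatase, had smaller differences, -1.48 and -1.37 (edgeR adjusted p = 4.09e-05 and 0.000254). The dBRD9A effect of COX6B2 was at the edge of the threshold (edgeR adjusted p = 0.0495).

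**Figure D1:**
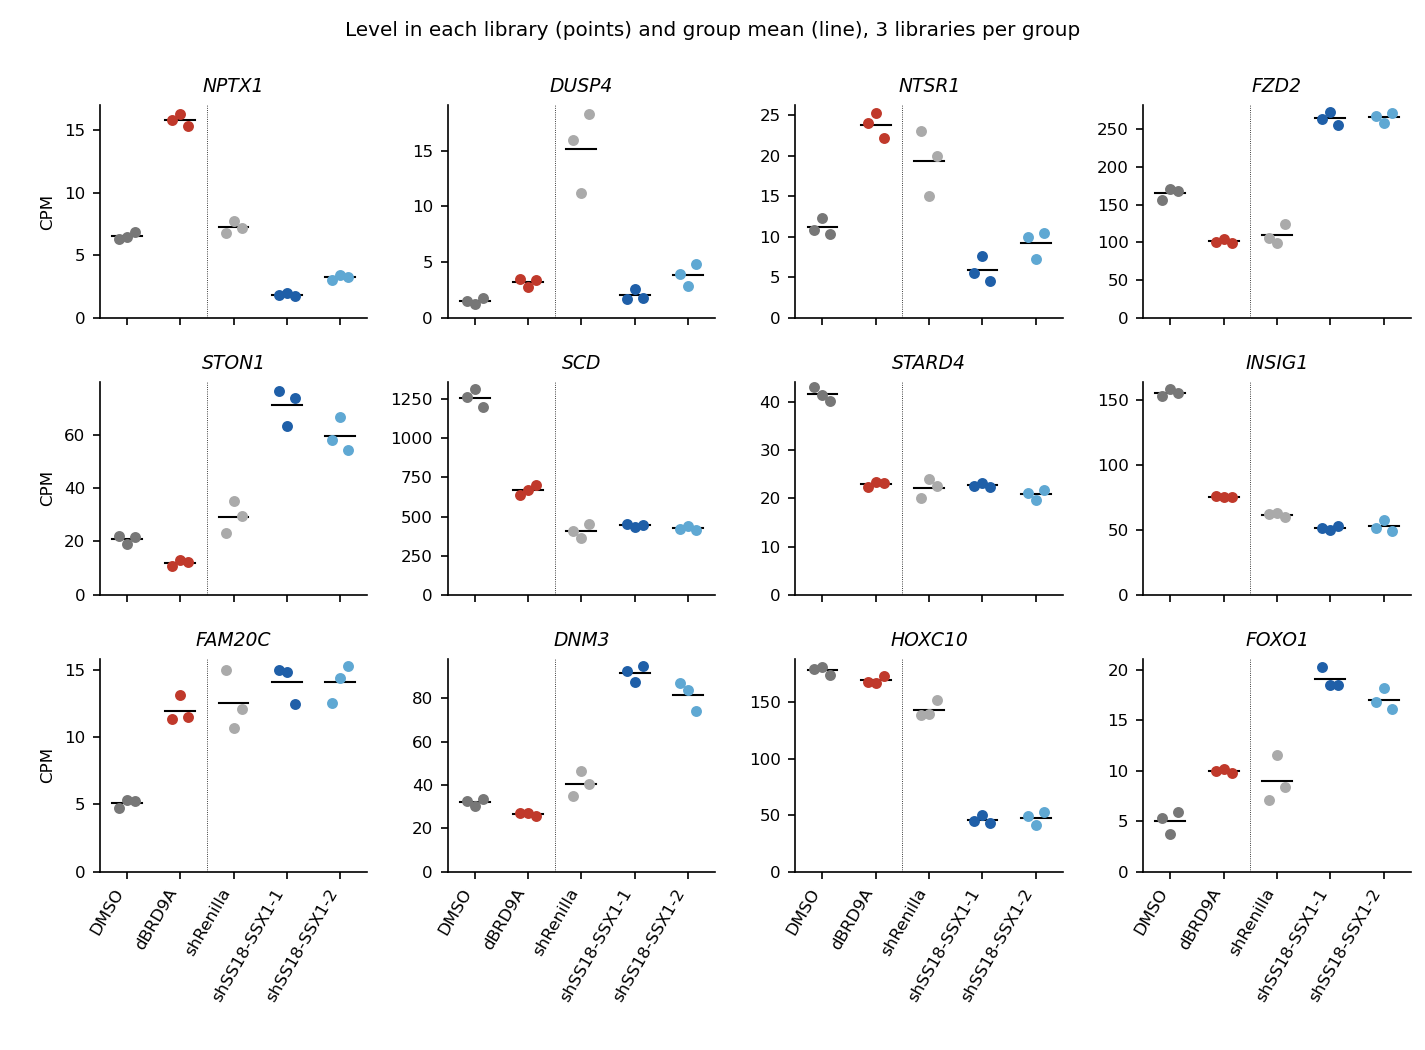
Levels (CPM) on linear axes that start at 0, with each library as a point and the mean of 3 as a line, the drug groups left and the hairpin groups right of the dotted line. NPTX1 and NTSR1 go up with dBRD9A and down with both hairpins, FZD2 and STON1 go the other way, SCD and STARD4 are lower with dBRD9A than with DMSO and lower with shRenilla than with DMSO too, and FOXO1 goes up in both experiments.

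Some called differences carried a dBRD9A effect while the knockdown effect did not pass the test. FAM20C, a kinase of secreted proteins, was 4.72, 5.31 and 5.29 CPM with DMSO and 11.4, 13.2 and 11.5 CPM with dBRD9A, and 10.7 to 15 CPM with shRenilla and 12.5 to 15 and 12.6 to 15.3 with the hairpins. The 3 hairpin groups overlapped, the DMSO and dBRD9A groups did not, and the difference was 1.08 (standard error 0.17, edgeR adjusted p = 6.66e-05). GUCY1A2, a subunit of the nitric oxide receptor guanylate cyclase, and ZHX2, a transcriptional repressor, rose by 1.16 and 0.99 with dBRD9A, with differences of 1.33 and 1.14 (edgeR adjusted p = 0.000253 and 1.57e-05). TMEFF2, a membrane protein, RBM3, an RNA-binding protein induced by cold, and LOC54944 followed with differences of 0.80, 0.66 and 0.59 (edgeR adjusted p at most 0.00191). All 6 were already higher with shRenilla than with DMSO, by 0.21 (LOC54944) to 4.06 (TMEFF2) on the log2 scale.

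In the other direction, SCD, the desaturase that makes monounsaturated fatty acids, was 1264, 1314 and 1200 CPM with DMSO and 638, 668 and 701 CPM with dBRD9A. It was 409.7, 365 and 449.7 CPM with shRenilla, 453, 434 and 443 CPM with shSS18-SSX1-1 and 423, 441 and 414 CPM with shSS18-SSX1-2. The dBRD9A libraries were all below DMSO, yet the hairpin control was lower still, by 1.63 on the log2 scale from DMSO, and both hairpin groups overlapped it. The difference was -1.0 (standard error 0.089, edgeR adjusted p = 8.55e-08). FER1L4, a pseudogene transcript, TBCK, a kinase-like protein, HYAL3, a hyaluronidase family member, and RALGAPA2, a subunit of a Ral GTPase-activating complex, fell with dBRD9A by 0.95, 0.84, 0.71 and 0.66, with differences of -1.0, -0.90, -0.63 and -0.76 (edgeR adjusted p at most 0.0129).

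A further set moved in 1 direction in both experiments, with no difference past the test. FOXO1, a transcription factor restrained by insulin signalling, was 5.30, 3.77 and 5.92 CPM with DMSO and 10.0, 10.2 and 9.75 CPM with dBRD9A. It was 7.06 to 11.6 CPM with shRenilla and 18.5 to 20.3 and 16.1 to 18.2 with the hairpins, and in neither experiment did control and treated libraries overlap. Its effects were 1.0 and 1.01, and the 95% interval of the difference, like all intervals of a difference given here not adjusted for the number of genes, was -0.47 to 0.46. DUSP5, a MAP kinase phosphatase, rose by 1.25 and 1.71 (interval -1.01 to 0.08), and CHST3, a chondroitin sulfotransferase, by 1.07 and 1.59 (-1.05 to 0.01). PTPRU, a receptor phosphatase, ANGPT1, the ligand of the TEK receptor, and PRICKLE1, of planar cell polarity, had intervals of -0.35 to 0.49, -0.33 to 0.60 and -0.65 to 0.01. Only 4 genes met the rule for falls, namely SEPTIN3, a neuronal septin (-0.15 to 0.31), RAB26, a small GTPase of secretory vesicles (-0.18 to 0.66), and the non-coding LOC399815 (-0.30 to 0.30) and LINC00263 (-0.57 to 0.13).

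The 10 genes that the study names as super enhancer (SE) associated, a class set by H3K27 acetylation in these cells, were then followed. SEs are large clusters of active enhancers that often lie near genes of cell identity. Of the 10, 7 had a lower dBRD9A than knockdown effect and 1 a higher one at any fold, with a median difference of -0.40 against -0.0032 over all genes. Here and in every list below, counts of differences are to be read against 17.5% higher and 19.0% lower over all tested genes. The names were chosen by the study on these samples, so the count is not independent evidence of a direction. The dBRD9A effect was lower at 6 and higher at 0 of the 10, against 5.24% and 5.06% of all tested genes. The knockdown effect was higher at 2 and lower at 2, against 26.5% and 25.1%, so those counts are not above the shares of all genes. For the whole set of SE associated genes, the study reported a preferential fall with dBRD9A and a collapse of expression with knockdown. The 10 names are only part of that set, so these counts do not test its report. DNM3, a dynamin of membrane traffic on chromosome 1 of GRCh37 from 171787027 to 172387606, had the largest difference, -1.36 (standard error 0.12, edgeR adjusted p = 7.86e-08). It was 32.6, 30.2 and 33.6 CPM with DMSO, 27.1, 26.9 and 25.9 CPM with dBRD9A and 35, 46.4 and 40.5 CPM with shRenilla. With shSS18-SSX1-1 it was 92.9, 87.4 and 95 CPM, and with shSS18-SSX1-2 87.2, 83.8 and 74.1 CPM. The hairpin libraries were all above every other library, and the dBRD9A libraries were all below DMSO, although the dBRD9A effect of -0.27 did not pass in this fit (edgeR adjusted p = 0.0696).

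TCF4, a basic helix-loop-helix factor, fell by 0.21 with dBRD9A and rose by 0.48 with knockdown, a difference of -0.69 (standard error 0.075, edgeR adjusted p = 1.15e-06). For MYC, the growth-promoting transcription factor, ZIC1 and ZIC4, zinc finger factors of the developing nervous system, and TRPS1, a GATA-type repressor, the fall was with dBRD9A, by 0.45, 0.26, 0.40 and 0.27. Their knockdown effects were between 0.03 and 0.10 and did not pass, and their differences were -0.53, -0.30, -0.43 and -0.37 (edgeR adjusted p at most 0.00725). MYC was 391 to 417 CPM with DMSO, 293 to 304 with dBRD9A, 211 to 332 with shRenilla and 270.5 to 294 and 262 to 314 with the hairpins. LIF, a cytokine, had a difference of -0.60 (edgeR adjusted p = 0.0262), which passed against shSS18-SSX1-2 alone and not against shSS18-SSX1-1 alone (-0.80 and -0.40, edgeR adjusted p = 0.0090 and 0.164). FOXC1, a forkhead factor of mesenchyme, was the exception, with a knockdown effect of -0.41, a dBRD9A effect of -0.08 that did not pass, and a positive difference of 0.33 (edgeR adjusted p = 0.00664). TWIST1, a regulator of mesenchymal identity, and TLE1, a corepressor used to diagnose synovial sarcoma, had differences of 0.05 (95% interval -0.14 to 0.24) and -0.06 (-0.20 to 0.09).

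Genes of sterol synthesis and uptake, which cells switch on when membranes lack cholesterol, were lower in the difference, and here the dBRD9A side led. Of 25 tested, 11 were lower and 2 higher (ACAT2 and FDPS), with a median of -0.27. With dBRD9A, 16 were lower and 0 higher, against 5.24% and 5.06% of all tested genes. With knockdown 10 were lower and 2 higher, against 25.1% and 26.5%. INSIG1, the sterol-sensing protein that holds back synthesis, was 153 to 158 CPM with DMSO, 74.8 to 75.6 with dBRD9A, 59.9 to 62.7 with shRenilla and 49.4 to 53 and 49.1 to 57.5 with the hairpins. It fell in both experiments, by 1.05 and 0.24, and the falls differed by -0.81 (standard error 0.081, edgeR adjusted p = 3.61e-07). STARD4, a sterol carrier, fell by 0.85 with dBRD9A, had a knockdown effect of -0.03 that did not pass, and differed by -0.82 (edgeR adjusted p = 2.77e-06). INSIG1 and STARD4 were -1.34 and -0.91 from DMSO on the log2 scale in the shRenilla control, so the 2 experiments started from unequal levels of these genes. SQLE and CYP51A1, enzymes of the later pathway, had differences of -0.45 and -0.68.

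Among 16 genes of fatty acid synthesis and desaturation, 8 were lower and 0 higher, with a median of -0.21. SCD5, a second desaturase, fell with dBRD9A by 0.55 and differed by -0.56 (edgeR adjusted p = 0.000312). FADS3, a member of the fatty acid desaturase family, was the exception in its source, as it rose by 2.27 with knockdown and had a dBRD9A effect of 0.04, for a difference of -2.22. The sterol response element written TCACCCCAC, on either strand, was in 1 of 19 sterol list promoters (250 bases before to 50 after the start, RefSeq, GRCh38.p14) and in 0.425% of 27305 promoters. It was in SREBF2 alone among the 19, while the windows of INSIG1 and STARD4 do not hold these letters.

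Developmental transcription factors of the HOXC and HOXB clusters were mostly higher in the difference, with falls on knockdown. All 9 tested HOXC genes, which pattern the body axis from 1 cluster on chromosome 12, had a positive difference past the test, with a median of 0.82. HOXC10 was 179, 182 and 174 CPM with DMSO, 168, 167 and 173 CPM with dBRD9A and 138, 139 and 152 CPM with shRenilla. The hairpins brought it to 44.7, 50.2 and 42.8 CPM and 48.9, 41.1 and 52.4 CPM, under all other libraries. Its difference was 1.54 (standard error 0.10, edgeR adjusted p = 1.65e-09), and HOXC9 and HOXC13 differed by 1.15 and 1.04. HOXC13 also rose with dBRD9A, by 0.30, and 1 other HOXC gene, HOXC11, fell with it, by 0.24. Within the cluster the knockdown effect was between -0.42 (HOXC8) and -1.62 (HOXC10), and the HOXC9 to HOXC13 genes had the larger differences. Of 10 HOXB genes, 6 were higher and 0 lower, with a median of 0.31 (also 0.31 over the 9 with a mean of at least 1 CPM in each experiment). HOXB5 led with 1.28 (standard error 0.097, edgeR adjusted p = 1.27e-08), followed by HOXB6 and HOXB9 at 0.79 and 0.75. No HOXA gene and 1 HOXD gene had enough reads to be tested, and that one did not pass.

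Homeobox and PAX factors outside the HOX clusters showed the same arrangement. Of 32 tested, 21 were higher and 2 lower, SIX2 among them, with a median of 0.82. With knockdown 22 fell and 3 rose, against 25.1% and 26.5% of all tested genes. With dBRD9A 4 fell and 1 rose, against 5.24% and 5.06%. LHX2, a LIM homeobox factor of forebrain and limb, was 138 to 149.9 CPM with DMSO, 154 to 163 with dBRD9A, 132 to 135 with shRenilla and 30.1 to 36.9 and 40.5 to 49.9 with the hairpins. The drug groups and shRenilla were of like size and the hairpin libraries far below, and the difference was 1.88 (standard error 0.10, edgeR adjusted p = 1.65e-10). IRX2, an Iroquois factor, differed by 1.51, PAX7 and PAX3, factors of muscle precursors and neural crest, by 1.39 and 1.32, and PITX1, of the hindlimb, by 0.88.

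T-box factors, which shape limbs and heart, were higher at 5 and lower at 1 of 7 (median 1.21, or 0.34 over the 4 with a mean of at least 1 CPM in each experiment, of which 2 were higher). TBX3 showed how unequal the controls could be: it was 0.214 to 0.494 CPM with DMSO, 0.599 to 1.04 with dBRD9A, 28.9 to 32.3 with shRenilla and 16.4 to 17.9 and 16.2 to 17.9 with the hairpins. A rise of 1.25 from the low DMSO level and a fall of 0.82 from the high shRenilla level gave its difference of 2.06 (edgeR adjusted p = 3.97e-05). TBX2 and TBX4 differed by 1.38 and 1.85, with falls of 1.68 and 2.03 on knockdown. For TBX2 the sign depends on the scale: it went from 299 to 243 CPM with dBRD9A and from 56.7 to 15.6 and 20.3 CPM with the hairpins (means of 3), so that in CPM the fall with dBRD9A was the greater and the difference was -16.8 CPM. Forkhead factors were more mixed, 9 higher and 3 lower of 19 (median 0.27, or 0.020 over the 16 with a mean of at least 1 CPM in each experiment), with FOXQ1 at 2.13, FOXP2 at -1.27 and FOXO4 at -1.07. Of 7 SOX factors 2 were higher, SOX8 (1.47) and SOX18 (0.69), and 1 lower, SOX4 (-0.29), a call lost under several alternatives. The SOX shares were 28.6% and 14.3%, against 17.5% and 19.0% of all tested genes. 

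Genes of the cell cycle differed as a block. All 27 tested genes of S phase and DNA replication were higher at any fold, with a median of 0.78, and 27 of 28 genes of mitosis and the spindle, with a median of 0.64. With knockdown 26 and 28 fell, against 0 and 2 with dBRD9A, which raised 3 and 0. Over all tested genes 25.1% fell with knockdown, and 5.24% fell and 5.06% rose with dBRD9A. With dBRD9A effects 0.2 lower the counts were 25 and 25. GINS2, a subunit of the replicative helicase complex, was 36.4, 39.9 and 35.1 CPM with DMSO and 41.3, 41.4 and 43.5 CPM with dBRD9A. It was 64.2, 43.3 and 42.5 CPM with shRenilla, 24.2, 24.2 and 21.2 CPM with shSS18-SSX1-1 and 29.7, 24.7 and 26.9 CPM with shSS18-SSX1-2. Its hairpin libraries were all below every other library, and its difference was 1.18 (standard error 0.16, edgeR adjusted p = 1.36e-05).

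Other members had much the same size. RRM2, which makes deoxynucleotides, differed by 0.99, MCM2 to MCM7, the helicase subunits, by 0.46 (MCM4) to 0.87 (MCM5), and MKI67, the proliferation marker, by 0.73. CCNE2, the cyclin that opens S phase, and CCNE1 also rose with dBRD9A, by 0.37 and 0.32, as did ORC1, of the origin recognition complex, by 0.30. BIRC5 (survivin), AURKB, a mitotic kinase, and CDC25C, a phosphatase that opens mitosis, differed by 1.02, 0.81 and 0.78, and BUB1 and CENPF fell with dBRD9A too, by 0.24 and 0.28. CDK1 was the 1 mitotic gene that did not pass (0.20, interval 0.01 to 0.39). The E2F-type sequence GCGGGAA, on either strand, was in 14 of 23 S phase list genes with a promoter entry (60.9%) and in 6.56% of 27305 promoters. This count describes the genes put in the list and not the libraries, so it is no support for the difference. The GINS2 promoter (RefSeq, GRCh38.p14, chr16:85688905-85689204, minus strand), shown because GINS2 had the largest difference of the list, has 1 match, in capitals, which is a match of letters and not a mapped site.

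GINS2 promoter: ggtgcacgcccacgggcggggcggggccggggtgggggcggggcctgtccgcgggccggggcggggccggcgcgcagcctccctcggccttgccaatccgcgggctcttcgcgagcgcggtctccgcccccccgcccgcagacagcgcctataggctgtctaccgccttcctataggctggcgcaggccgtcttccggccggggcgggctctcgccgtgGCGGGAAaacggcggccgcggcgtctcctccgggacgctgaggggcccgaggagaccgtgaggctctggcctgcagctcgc

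Cyclin-dependent kinase inhibitors did not follow in 1 direction, with 2 higher and 2 lower of 6. CDKN2A, which encodes p16 and ARF, and CDKN1C (p57) differed by 2.30 and 1.36 and fell with knockdown by 2.70 and 1.11. CDKN1B (p27) rose with knockdown by 0.80 and differed by -0.98 (edgeR adjusted p = 4.36e-07). CDKN1A (p21) rose in both, by 0.45 and 0.37, with a difference of 0.07 (-0.17 to 0.31). Of 20 p53 targets 3 were higher and 5 lower, shares near the 17.5% and 19.0% of all tested genes. GDF15, a secreted stress factor, was 0.577 to 1.07 CPM with DMSO, 0.479 to 0.884 with dBRD9A, 0.415 to 0.629 with shRenilla and 9.56 to 13.3 and 13.5 to 15.6 with the hairpins, for a difference of -4.87 (edgeR adjusted p = 5.12e-08).

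Immediate early genes, whose transcripts appear within minutes of a stimulus and decay fast, rose mainly with knockdown, and some of them rose with dBRD9A too. Of 36 tested, 27 were lower and 0 higher in the difference, with a median of -1.01. Knockdown raised 34 and dBRD9A 9, against 26.5% and 5.06% of all tested genes, and neither lowered any past the test. JUN, a subunit of AP-1, was 2.83, 2.48 and 2.65 CPM with DMSO and 5.09, 4.47 and 5.18 CPM with dBRD9A. It was 1.74, 2.60 and 2.56 CPM with shRenilla, 8.47, 10.2 and 13.8 CPM with shSS18-SSX1-1 and 9.0, 10.3 and 9.55 CPM with shSS18-SSX1-2. Treated libraries were above their controls in both experiments, with effects of 0.89 and 2.17 and a difference of -1.28 (standard error 0.25, edgeR adjusted p = 0.000653). CTGF and CYR61, matrix-associated growth regulators, rose by 0.64 and 0.59 with dBRD9A and by 3.12 and 1.70 with knockdown. ATF3, a stress-induced factor, and SRF, the serum response factor, rose in both by amounts whose difference did not pass (-0.25, -0.57 to 0.08, and 0.03, -0.15 to 0.22). EGR2, a zinc finger factor of the class, had 6, 1 and 8 counts over the DMSO, dBRD9A and shRenilla libraries and 198 and 140 with the hairpins. IER3 and KLF4 were also low, with 6 to 22 and 7 to 9 counts over those groups, and differed by -3.23 and -3.21. Over the 28 members with a mean of at least 1 CPM in each experiment the median was -0.80.

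The stress lists were mixed, to be read against 17.5% higher and 19.0% lower over all tested genes. Of 28 genes of the integrated and endoplasmic reticulum stress responses, 14 were lower and 5 higher. DDIT4, an inhibitor of mTORC1, was 17.1 to 17.6 CPM with DMSO, 16.6 to 18.3 with dBRD9A, 25.4 to 35.3 with shRenilla and 232 to 248 and 174 to 188 with the hairpins, and differed by -2.80 (standard error 0.12, edgeR adjusted p = 1.62e-11). SLC7A11, the cystine transporter, and VLDLR, a lipoprotein receptor, rose in both and differed by -1.03 and -0.86. CHAC1, which degrades glutathione, rose in both, by 1.44 and 1.60, with a difference of -0.16 (-0.93 to 0.61). PHGDH, the first enzyme of serine synthesis, and ATF5 were among the 5 higher, at 0.72 and 0.83. Heat shock chaperones were higher at 6 and lower at 2 of 13 (1 and 3 with dBRD9A effects 0.2 lower). The 6 became 3 without DMSO replicate 3, without dBRD9A replicate 1, or against shSS18-SSX1-2 alone. Among the 6 were HSP90AA1 at 0.40 and HSPA1B at 1.13, a call lost under 14 alternatives, among them either hairpin alone (edgeR adjusted p = 0.0550 and 0.0573). HSPB1 was lower at -1.54.

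The largest negative differences belonged to genes with almost no reads outside the hairpin libraries. ACTA2, smooth muscle actin, had 2 counts over the 3 DMSO libraries, 2 with dBRD9A and 2 with shRenilla, against 3228 with shSS18-SSX1-1 and 4323 with shSS18-SSX1-2. No dBRD9A fold can be given for it. The hairpin level was 1990-fold that of shRenilla (95% exact interval 551 to 16430, which covers counting error only). ACTA2-AS1, its antisense gene, had 0 counts with shRenilla and was at least 708-fold higher with the hairpins (3 counts over the group taken as the floor), and reads of the pair cannot be told apart without the strand. TGM2, a crosslinking enzyme of the matrix, and LMOD1, which nucleates actin filaments in muscle, likewise had 2 to 4 counts over each of the 3 other groups. The hairpin libraries held 8845 counts of TGM2 and 3029 of LMOD1, 1554-fold (532 to 7535) and 798-fold (221 to 6593) the shRenilla level. Of the 1531 genes called lower, 43 had at most 3 counts over each of the DMSO and dBRD9A groups, and 371 had a mean under 1 CPM over both. When genes had to average 1 CPM or more in each experiment, 12359 were tested, 840 were called higher and 1154 lower.

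PDGFRB, the platelet-derived growth factor receptor of mesenchymal cells, had reads in every library. It was 0.270, 0.599 and 0.385 CPM with DMSO, 0.421, 0.360 and 0.914 CPM with dBRD9A and 0.227, 0.179 and 0.194 CPM with shRenilla. It was 72.7, 71.3 and 62.1 CPM with shSS18-SSX1-1 and 75.2, 64.5 and 69.7 CPM with shSS18-SSX1-2, a difference of -7.99 (standard error 0.60, edgeR adjusted p = 1.13e-08). The hairpin libraries stood far above all others. THBS1, thrombospondin 1 of the matrix, had 9, 12 and 17 counts over the DMSO, dBRD9A and shRenilla libraries and 5434 and 6498 with the hairpins, and its difference was -8.20 (standard error 0.83, edgeR adjusted p = 4.23e-07). KRT8 and KRT18, a pair of simple epithelial keratins, had 3 and 4 counts with DMSO and 4 and 12 with shRenilla, against 1775 and 2477 with shSS18-SSX1-1 and 3873 and 5654 with shSS18-SSX1-2. The summed endothelial markers were 3.81 to 6.72 CPM with shRenilla, 5.20 to 7.91 CPM with shSS18-SSX1-2 and 2.75 to 4.16 CPM with shSS18-SSX1-1, and their part in these results was not tested.

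Contractile, matrix and adhesion genes, the outfit of differentiated mesenchymal cells, were mostly lower. Of 16 tested smooth muscle genes 12 were lower and 0 higher (median -1.57, or -1.28 over the 11 with a mean of at least 1 CPM in each experiment). The dBRD9A effect was higher at 3, CNN2, MYL9 and PDLIM7, against 5.06% of all tested genes. TAGLN, an actin-binding protein of smooth muscle, was 4.42 to 5.48 CPM with DMSO, 4.47 to 5.89 with dBRD9A, 13 to 17.1 with shRenilla and 508 to 529 and 484 to 563 with the hairpins. MYLK, the kinase that starts smooth muscle contraction, differed by -6.83 (standard error 0.27, edgeR adjusted p = 2.63e-12). A CArG box, the serum response factor motif, searched on both strands, was in 3 of 12 of the promoters (ACTG2, CNN2 and MYLK) and in 1.29% of all, and in 2 of 27 immediate early promoters (EGR1 and SRF). The MYLK window lies at a start inside the gene, 263784 bases from its 5′ end, and not at the start of the kinase. These counts use the first entry of each gene, and over every entry they were 5 of 12, 1.6% and 3 of 27. ACTG2, a smooth muscle actin, had 1, 12 and 12 counts over DMSO, dBRD9A and shRenilla and 6208 and 8020 with the hairpins. Its knockdown effect passed, and its difference did not (edgeR adjusted p = 0.113). Its promoter (RefSeq, GRCh38.p14, chr2:73892758-73893057, plus strand), shown as a window at the 5′ end of a gene that rose with knockdown, has 2 matches, in capitals, again as matches of letters only.

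ACTG2 promoter: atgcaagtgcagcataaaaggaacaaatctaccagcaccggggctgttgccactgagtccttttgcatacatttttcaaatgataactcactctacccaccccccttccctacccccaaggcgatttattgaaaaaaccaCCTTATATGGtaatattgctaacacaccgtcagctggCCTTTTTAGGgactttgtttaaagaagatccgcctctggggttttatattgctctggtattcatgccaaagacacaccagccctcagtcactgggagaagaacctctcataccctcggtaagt

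Of 25 collagens 12 were lower and 2 higher (median -0.66, or -0.59 over the 17 with a mean of at least 1 CPM in each experiment). COL1A1, the main chain of bone and skin collagen, was 3.75 to 4.45 CPM with DMSO, 6.19 to 7.07 with dBRD9A, 2.33 to 4.19 with shRenilla and 368 to 396 and 569.9 to 582 with the hairpins. It rose in both experiments, by 0.69 with dBRD9A and 7.15 with knockdown, and differed by -6.46 (standard error 0.18, edgeR adjusted p = 5.20e-14). COL3A1 differed by -4.95. COL16A1 differed by -5.37 although the hairpins only brought it back toward the level with DMSO, since it was 7.32 to 9.62 CPM there, 0.0484 to 0.151 with shRenilla and 2.92 to 3.49 and 4.77 to 5.36 with the hairpins. Matrix glycoproteins and proteoglycans were lower at 22 of 30 and higher at 0 (median -1.19, or -0.97 over the 20 with a mean of at least 1 CPM in each experiment). ELN, elastin, was at -3.65 and TGFBI 72.2-fold (95% exact interval 12.7 to 2872) above its 1 count with shRenilla. In the collagen and matrix lists 7 and 10 members averaged under 1 CPM over DMSO and dBRD9A. Such members could be tested through their hairpin reads alone, so their signs are no support for a direction. Metalloproteinases and their inhibitors were lower at 5 of 10 and higher at 0, among them TIMP3 and TIMP1, inhibitors, at -5.55 and -1.10, and MMP19 at -0.74. TIMP3 and TGFBI were -3.96 and -4.14 with shRenilla from DMSO.

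Integrins and focal adhesion genes were lower at 17 of 21 and higher at 0 (median -0.79, or -0.68 over the 18 with a mean of at least 1 CPM in each experiment). ITGA3, a laminin receptor chain, and ITGA10, a collagen receptor chain, differed by -2.59 and -2.82, and ITGB3, with 2 counts with shRenilla, was 42.2-fold higher with the hairpins (11.5 to 351). VCL, vinculin, and ZYX, zyxin, rose in both, by 0.23 and 0.58 with dBRD9A and 1.02 and 1.14 with knockdown. YAP and TEAD targets were lower at 12 and higher at 1 of 18, with IGFBP3 at -2.89 and NUAK2 at -2.81. TGF-beta ligands, receptors and targets were lower at 9 and higher at 0 of 20, with the latent TGF-beta binding proteins LTBP1 and LTBP2 at -6.53 and -2.62. The TGF-beta median was -0.35, or -0.18 over the 16 with a mean of at least 1 CPM in each experiment. Striated muscle genes were lower at 5 of 14 (TNNC1 and TNNC2, troponins C, at -3.13 and -3.97, and MYL4, a myosin light chain with 0 counts with shRenilla and at least 31.3-fold more with the hairpins), and only 4 of the 14 had a mean of 1 CPM in each experiment. The median difference of the striated muscle list was -2.18, or -0.44 over those 4. Keratins and epithelial genes were lower at 6 and higher at 2 of 14 (median -1.62, or -0.14 over the 6 with a mean of at least 1 CPM in each experiment, of which 2 were lower). Members such as KRT14 and CDH1, with at most 2 counts in each of the other groups, were tested only because of their reads with the hairpins, so the counts support nothing about the list. In it was ELF3, an epithelial factor, going from 1 count with shRenilla to 277 and 485 with the hairpins.

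Interferon-stimulated genes, the antiviral programme that type I interferon turns on, rose with knockdown at most members, with few or no calls with dBRD9A. Of 29 tested, 21 were lower and 0 higher in the difference. Knockdown raised 28, against 26.5% of all tested genes, and dBRD9A raised 0 and lowered 0, against 5.06% and 5.24%. Of the 29, 13 had a mean under 1 CPM over DMSO and dBRD9A. Such members could be tested through their hairpin reads alone, which favours a rise with knockdown and leaves little room for a dBRD9A call. Their part of these counts is thus no support for a direction. At an unadjusted p under 0.05, edgeR gave 1 of the 29 with dBRD9A, and after adjustment DESeq2 gave 0 and limma voom 1. The median difference was -2.35, or -1.27 over the 16 with a mean of at least 1 CPM in each experiment. MX1, an antiviral GTPase, was 0.494, 0.300 and 0.240 CPM with DMSO, 0.547, 0.519 and 0.305 CPM with dBRD9A and 0.302, 0.269 and 0.435 CPM with shRenilla. With shSS18-SSX1-1 it was 9.02, 6.27 and 9.12 CPM, and with shSS18-SSX1-2 13.6, 21.1 and 11.4 CPM. The first 3 groups overlapped near 0 and both hairpins were above them, with the second above the first, and the difference was -4.66 (standard error 0.78, edgeR adjusted p = 0.000126). OAS1 and OAS2, sensors of double-stranded RNA, had 3 or fewer counts over each drug group, 13 and 7 over shRenilla, and 755 and 963 over the hairpins, 30.6-fold (95% exact interval 17.8 to 57.8) and 72.5-fold (35.05 to 181) above shRenilla. The shRenilla cells were infected with a hairpin virus too, and the part of infection or of each hairpin in these rises was not tested. The summed leukocyte markers were 3.19 to 5.55 CPM with shRenilla and 5.85 to 6.97 CPM with the hairpins, and their part was not tested. PTPRC and CD3E had at most 2 counts in any group, while CD68, the 1 leukocyte marker tested, rose with knockdown by 0.52.

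The motif GAAANNGAA of interferon response elements, on either strand and with overlaps counted, was in 13 of the 20 list promoters with an entry (65.0%) and in 8.29% of 27305 promoters. That count too describes the list and not the libraries. The MX1 promoter (RefSeq, GRCh38.p14, chr21:41420308-41420607, plus strand), shown as a gene of the list with a match, has 2 overlapping matches, in capitals.

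MX1 promoter: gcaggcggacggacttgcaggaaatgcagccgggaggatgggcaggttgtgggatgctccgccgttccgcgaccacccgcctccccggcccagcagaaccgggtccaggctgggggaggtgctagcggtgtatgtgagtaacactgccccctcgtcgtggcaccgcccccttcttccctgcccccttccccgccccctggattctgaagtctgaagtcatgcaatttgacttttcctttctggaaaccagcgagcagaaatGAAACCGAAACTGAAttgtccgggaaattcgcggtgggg

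MHC class I and antigen presentation genes were lower at 6 of 14 and higher at 0, with HLA-B and HLA-C, which share sequence with each other, at -1.12 and -1.36, and NLRC5, their transactivator, at -1.64. The median of that list was -0.41, or -0.16 over the 11 with a mean of at least 1 CPM in each experiment. NF-kB targets and chemokines were lower at 8 of 13 and higher at 0 (median -0.74, or -0.70 over the 9 with a mean of at least 1 CPM in each experiment). ICAM1, an adhesion molecule for leukocytes, fell with dBRD9A by 0.31, rose with knockdown by 1.17 and differed by -1.48 (standard error 0.094, edgeR adjusted p = 1.24e-09), whereas TNFAIP3, a brake on the pathway, rose in both, by 0.56 and 1.62. NFKBIZ differed by -2.73.

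Signalling pathways were divided. Genes of Wnt output were higher at 6 and lower at 3 of 16: NOTUM, which inactivates Wnt proteins, CCND1, cyclin D1, and TCF7 at 1.14, 0.88 and 0.75, all with falls on knockdown. Frizzled receptors and Wnt ligands were higher at 8 and lower at 10 of 26, with the ligands WNT6 and WNT9A at -2.12 and -3.0 beside FZD2. Of 21 genes of FGF signalling and MAPK feedback 9 were higher and 5 lower, with ETV5, a factor induced by FGF signals, at 1.71 and the ligand FGF2 at -1.59. Hedgehog genes were higher at 3 and lower at 5 of 13. The ligand IHH had 3 counts with DMSO, 39 with dBRD9A, 9 with shRenilla and 3 with each hairpin, too few for a fold, although the test of its difference passed (edgeR adjusted p = 0.000425). SHH differed by 2.39 and the coreceptor BOC by -2.92.

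Notch receptors, ligands and targets were higher at 6 (3 against shSS18-SSX1-2 alone) and lower at 4 of 16, with the ligand DLL1 at 2.0 and the targets HES5 and HEY1 at 1.86 and -1.90. The HES5 call was lost against shSS18-SSX1-2 alone (edgeR adjusted p = 0.0652). BMP genes were higher at 4 and lower at 9 of 20. NOG, the BMP antagonist noggin, rose in both, by 1.69 and 5.52, and differed by -3.83 (edgeR adjusted p = 0.000202), while BMP2 differed by 1.80. GDF5 had 3 counts in each of the drug groups and with shRenilla and 258 over the hairpins, 45.3-fold the shRenilla level (15.3 to 221). Axon guidance genes were higher at 8 and lower at 13 of 31: EPHA3, an ephrin receptor, rose with dBRD9A by 0.87 and fell with knockdown by 0.76, and SEMA3B, a semaphorin, differed by -3.05. NRP2, a semaphorin receptor, had 0 counts with shRenilla and was at least 12.5-fold higher with the hairpins. Neuronal and synaptic genes were higher at 3 and lower at 4 of 11, with the neurofilament NEFH and the intermediate filament INA at -2.19 and -1.81, against the positive value of NPTX1. Bone, cartilage and fat markers were higher at 2 and lower at 2 of 6, with CEBPA, BGLAP and ALPL at 1.09, 0.81 and -2.65.

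Synovial sarcoma markers were higher at 3 and lower at 0 of 5: SSX1 at 1.44 (standard error 0.13, edgeR adjusted p = 1.08e-07), SS18 at 0.59 and BCL2, the survival factor, at 0.66. SSX1 and SS18 are both part of the fusion transcript that the hairpins target, so their direction was set by the design. NCAM1 fell in both, by 0.26 and 0.35, and its difference was 0.09 (-0.06 to 0.24). CD99, a marker of this tumour, is listed at 0 in all 15 libraries, and no expression in the cells cannot be told apart from reads lost in the counting. The endothelial receptor TEK, the 1 of 2 tested endothelial markers that passed, had 1 count with DMSO, 0 with dBRD9A and with shRenilla, and 53 and 96 with the hairpins, at least 26.2-fold above shRenilla. CD68 was the 1 leukocyte marker tested. It rose with knockdown by 0.52 past the test, and its difference did not pass.

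BAF subunits were higher at 11 and lower at 3 of 30 (median 0.07), and with dBRD9A effects 0.2 lower at 4 and 8, so the list has no direction that holds under scaling. Without shRenilla replicate 1 the counts were 10 and 5. DPF1, a subunit of neuronal BAF, GLTSCR1L, of the non-canonical complex, and SMARCB1, of the canonical core, differed by 0.98, 0.75 and 0.54. BRD9 itself had a difference of 0.23 (-0.04 to 0.51). Polycomb subunits were higher at 13 and lower at 3 of 35 (6 and 11 with dBRD9A effects 0.2 lower, and 8 higher without DMSO replicate 1 or dBRD9A replicate 1). BCOR, of a variant PRC1 complex, and EZH2, the methyltransferase of PRC2, differed by 0.92 and 0.45, and PCGF5 by -1.26. Ribosomal protein genes were lower at 11 and higher at 0 of 51, or 21.6% against 19.0% lower over all tested genes, with a median of -0.14 and RPLP1, RPL10 and RPL23 at -0.32, -0.29 and -0.29. Their count was 27 without shRenilla replicate 1, 6 against shSS18-SSX1-2 alone and 35 with dBRD9A effects 0.2 lower.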

How the data were processed

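RNA-seq libraries of HSSYII cells were analysed from the raw counts that the authors deposited, 1 table of counts per transcript and library. The submitters' processing notes name STAR, featureCounts and hg19 (GRCh37), while versions and the strand setting were not given in the sources used here, and the tables hold no spike-in rows. The deposited table of dBRD9A replicate 2 is mixed text, in which the count was read as the last word of column 3 (4535 rows were broken). In 80 rows the symbol had been turned into a date, and it was restored where 1 reading was possible (2 rows stayed unresolved). For each symbol the transcript with the highest count sum over the 15 libraries was then kept, 25679 of 48104 rows.

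All 15 libraries were fitted together in edgeR 4.0.16 (R 4.3.3, robust quasi-likelihood test, TMM scaling, filterByExpr with a minimum count of 10), with 5 group means and no covariate, and p-values were adjusted over 14559 genes by the Benjamini-Hochberg method. TMM assumes that most genes do not change, so a global shift would not be seen. Replicates sharing a number were not paired (correlations of their deviations -0.27 to 0.22). Alternatives were DESeq2 1.42.0, limma 3.58.1 voom with a weight per experiment, other scalings, filters and thresholds, a replicate block, each hairpin alone and each library left out. The pipeline was tested on simulated data for the same contrast: of 50 genes per fold among 14459, it recovered 18% at 1.25-fold, 72% at 1.5-fold, 92% at 2-fold and 100% at 4-fold, with 5.37% false among calls. The simulation gave each gene 1 spread in all libraries, so the unequal spread of the experiments was not in it. Changed genes averaged at least 1 CPM, and recovery asked for adjusted p and sign without the 1.5-fold rule. These rates may therefore not hold for the real calls.

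Genes were named by rule: the 8 largest called differences each way and the 6 strongest of each class of paired effects, with a mean of at least 5 CPM, every gene of the SE list, and up to 3 members of each list with the largest differences past the test. A few genes that the rule names are not reported here. Other members are named as examples and were chosen after their values were seen. The contrast, the lists and the rule were chosen with earlier results of these data known. Exact intervals on counts cover counting error only. Promoters are RefSeq windows on GRCh38.p14, the first entry of each gene, whereas gene positions are on GRCh37. Motif counts describe the genes put in a list, so they are no support for a direction in these data.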

Additional observations from a re-analysis of the deposited data

Results flagged for a closer look

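The knockdown effect of 27 of the 164 named genes differed between the hairpins (edgeR quasi-likelihood test of shSS18-SSX1-2 minus shSS18-SSX1-1, adjusted p under 0.05). Over all 14559 tested genes, 246 (1.69%) did. Most named genes were picked by the size of an effect, so their share does not stand for all genes. The values here are that contrast on the log2 scale, 3 libraries a hairpin. SSX1 itself was among them at 0.52, so more SSX1 reads remained with shSS18-SSX1-2. Genes lowered by both hairpins were mostly lowered less by shSS18-SSX1-2, with NPTX1 0.83, NKX6-2 0.68, NFATC1 0.70, UNCX 0.95, LHX2 0.45, IRX2 0.44, SOX8 0.60, RRM2 0.39 and CEBPA 0.58.

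Several genes raised by both hairpins stood higher with shSS18-SSX1-2. These were the keratins and ELF3 (KRT8 1.08, KRT18 1.14 and ELF3 0.76) and genes of matrix and adhesion (COL1A1 0.57, COL16A1 0.68, TIMP3 0.79, TGM2 0.39 and ITGA3 1.12). Among them too were LMOD1 at 0.56, the growth factor binding protein IGFBP3 at 0.41 and the growth factor FGF2 at 0.46. The last were the neuronal filament INA at 1.15 and MX1 at 0.92. GDF5 at -1.05, SEMA3B at -0.46 and DDIT4 at -0.41 were raised by both and stood lower with shSS18-SSX1-2, and FER1L4 differed by -0.35. No search for single outlying values within a group was run on these genes, since it needs at least 4 libraries.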

How the results depend on the processing

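No result of the 4 counts over all genes or of the 164 named genes changed sign under the alternatives fitted, all on the log2 scale. As a difference in CPM, TBX2 (-16.8 CPM) had the opposite sign, 1 of the 152 named genes past the test, as did 7 of the 2522 called genes. Lowering all dBRD9A effects by 0.2 on the log2 scale gave 548 genes called higher and 2476 lower, and 1165 and 5179 at any fold. A 2-fold threshold left 405 and 841 calls, and glmTreat against 1.5-fold 353 and 739, by construction stricter. Leaving out each library in turn gave 890 to 1122 called higher and 1441 to 1658 lower, and 2088 to 2960 and 2398 to 3139 at any fold. With a replicate block the counts were 970 called higher and 1519 lower, and 2321 and 2609 at any fold, but same-numbered samples did not deviate together, so the numbers do not pair them. DESeq2 called 941 and 1606. A mean of at least 1 CPM in each experiment, an alternative chosen after seeing the data, left 840 and 1154.

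Of 4535 values of named genes under alternatives, 4441 kept direction and side of the threshold, 87 lost the threshold and 7 gained it. HSPA1B lost it in 14, BGLAP in 13, NRP2 and SOX4 in 12 each, OAS2 and NLRC5 in 6 each, LIF in 5. Counts over lists that moved with dBRD9A effects 0.2 lower were those of genes with small differences (ribosomal proteins, BAF, Polycomb, heat shock). With shSS18-SSX1-2 alone, heat shock and Notch genes higher went from 6 to 3 each. The spread of the hairpin libraries and the depth limit genes with few reads, since 371 of 1531 genes called lower had a mean under 1 CPM with DMSO and dBRD9A. The cause of these changes was not tested.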
